A study of Mus musculus with 2 samples.

Results

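Mertk, Axl and Itgb5 are receptors and Gas6, Pros1 and Mfge8 are secreted ligands of the system by which cells recognise and engulf dead cells, and their RNA is described here by cell type and age in adrenal glands whose cortex is targeted for deletion of Znrf3. The 6 genes were taken by their symbols out of 32245 gene symbols in the deposited matrices, and all 6 were found. Mertk and Axl belong with Tyro3 to the TAM family of receptor tyrosine kinases. They do not touch a dead cell directly. Gas6, a ligand of both, and protein S, a ligand of Mertk encoded by Pros1, bind phosphatidylserine on the dead cell. These ligands bridge it to the receptor, and both need vitamin K dependent carboxylation for this. Mfge8 bridges phosphatidylserine to integrins, among them the one that Itgb5 forms with Itgav, and in macrophages both routes lead to engulfment, while Mertk and Axl also dampen inflammatory signalling.

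The data are 3' single-cell RNA counts from adrenals of female C57BL/6J mice of genotype SF1-Cre+;Znrf3 Fx/Fx at 9 weeks (3 pooled adrenals) and at 6 weeks (2 pooled adrenals). The study set out to follow the immune cells of the gland as the cortex passes from overgrowth to regression. SF1-Cre acts in steroid-producing cells, so the floxed Znrf3 alleles, which encode a ubiquitin ligase that limits Wnt signalling, are targeted in the cortex at both ages, and no gland with intact Znrf3 was analysed here. Before capture, erythrocytes were lysed and live cells were sorted as positive for Vybrant DyeCycle Ruby, a nuclear stain, and negative for DAPI. With 1 library per age no difference between ages has a replicate or a test, and all intervals below are 95% intervals that cover counting error only.

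The 9-week library held 10812 barcodes and 99728879 unique molecular identifiers (UMIs, 1 per captured RNA molecule), and the 6-week library held 8880 barcodes and 97001752 UMIs. After filters and removal of called doublets, 9932 cells remained at 9 weeks (median 7028.5 UMIs per cell) and 8119 at 6 weeks (median 11347 UMIs per cell). The libraries shared 29 barcodes, 26 of them among kept cells. Cell classes were rebuilt from clusters and named by fixed marker genes, with the 6 genes kept out of both steps. The summed level of the 8 macrophage markers was 24048.5 UMIs per 1000000 UMIs of those cells (CPM) in 9-week and 23063.7 CPM in 6-week macrophage-like cells, and the 8 adrenocortical markers came to 20013.7 CPM in 9-week and 25280.4 CPM in 6-week adrenocortical-like cells. The 2 libraries often fell into different clusters of 1 class. In the cortex, clusters A1, A2, A3 and A6, of which 3 were led by Cyp2f2, held 1, 18, 4 and 21 cells at 9 weeks and 943, 896, 768 and 454 cells at 6 weeks, while cluster A5, led by Cyp11b1, held 657 cells at 9 weeks and 83 at 6 weeks. Among macrophages, the resident cluster M4 held 10 cells at 9 weeks and 372 at 6 weeks, and cluster M1 held 741 cells at 9 weeks and 66 at 6 weeks. Class ratios between the ages are therefore given beside values of single clusters, and library and cell state cannot be told apart for clusters found almost wholly in 1 library.

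The genes lie on mouse chromosomes 2 (Mertk), 7 (Axl and Mfge8), 8 (Gas6) and 16 (Pros1 and Itgb5). On GRCm38 (mm10), with GENCODE M21 gene models, Mertk spans chr2:128698956-128802894 on the plus strand, Axl chr7:25757273-25788705 on the minus strand and Itgb5 chr16:33829665-33949338 on the plus strand. Among the ligands, Gas6 spans chr8:13465374-13494490 on the minus strand, Pros1 chr16:62854307-62929346 on the plus strand and Mfge8 chr7:79133768-79149060 on the minus strand. All 6 are protein coding. The promoter windows of 4 of them are shown because the levels pair these genes in opposite ways: the ligands Gas6 and Pros1 were highest in much the same cells, while the receptors Mertk and Axl shared macrophages and parted in endothelium and dendritic cells. Each run below covers 300 bases of the gene's own strand, from 250 bases before to 50 after the RefSeq start on GRCm38.p6, and capitals mark the GC box (GGGCGG, or CCGCCC where it lies on the opposite strand). The Gas6 window is chr8:13494486-13494785 (minus strand), the Pros1 window chr16:62854057-62854356 (plus strand), the Mertk window chr2:128698665-128698964 (plus strand) and the Axl window chr7:25788684-25788983 (minus strand).
Gas6: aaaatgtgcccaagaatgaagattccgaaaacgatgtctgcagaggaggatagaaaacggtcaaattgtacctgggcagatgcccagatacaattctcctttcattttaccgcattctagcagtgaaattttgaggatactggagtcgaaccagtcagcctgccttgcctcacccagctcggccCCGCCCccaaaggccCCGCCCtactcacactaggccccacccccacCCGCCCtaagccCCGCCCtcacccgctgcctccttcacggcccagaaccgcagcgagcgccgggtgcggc
Pros1: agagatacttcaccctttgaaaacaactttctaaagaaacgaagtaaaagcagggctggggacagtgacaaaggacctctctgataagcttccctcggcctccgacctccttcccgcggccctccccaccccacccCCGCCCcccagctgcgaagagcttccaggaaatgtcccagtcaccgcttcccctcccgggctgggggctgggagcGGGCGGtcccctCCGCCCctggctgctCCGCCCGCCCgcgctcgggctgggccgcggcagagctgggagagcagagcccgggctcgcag
Mertk: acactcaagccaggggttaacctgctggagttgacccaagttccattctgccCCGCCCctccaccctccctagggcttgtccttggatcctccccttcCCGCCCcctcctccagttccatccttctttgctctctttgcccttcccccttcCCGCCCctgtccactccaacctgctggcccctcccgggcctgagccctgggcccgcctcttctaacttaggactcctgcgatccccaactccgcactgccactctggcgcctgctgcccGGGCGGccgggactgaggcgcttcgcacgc
Axl: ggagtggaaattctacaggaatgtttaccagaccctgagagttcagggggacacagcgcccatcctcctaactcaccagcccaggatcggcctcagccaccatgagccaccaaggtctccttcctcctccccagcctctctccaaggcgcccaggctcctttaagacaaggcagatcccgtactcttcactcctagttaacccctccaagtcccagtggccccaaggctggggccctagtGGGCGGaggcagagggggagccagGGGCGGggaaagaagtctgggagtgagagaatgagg
The GC box was found 4 times in Gas6, 5 times in Pros1 (2 of them overlapping), 4 times in Mertk and 2 times in Axl, and in the unprinted windows 4 times in Mfge8 and 3 times in Itgb5. Of 32851 mouse promoter windows in the same RefSeq table, 35.7% held it at least once. The Gas6 copies began 66, 51, 20 and 8 bases before the start, whereas 3 of the Mertk copies began 198, 152 and 99 bases before it. G and C made up 58.3% of the Gas6 window, 66.7% of Pros1, 66.0% of Mertk and 60.3% of Axl, against a median of 52.7% over all windows. On either strand, none of the 6 windows held AAGGTCA, a site of the cortical regulator Nr5a1 (4.72% of all windows), GAGGAAGT, a site of the myeloid regulator Pu.1 (3.20%), or the DR4 repeat, a site of liver X receptors (0.0152%). These matches describe letters in a short window and say nothing about which factors bind.

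Mertk RNA was found in macrophages and, at a lower level, in endothelium. It stood at 87.8 CPM at 9 weeks (83.4 to 92.4) and 84.9 CPM at 6 weeks (77.6 to 92.5) in macrophage-like cells. Endothelial-like cells had 61.8 CPM at 9 weeks (54.5 to 69.8) and 62.2 CPM at 6 weeks (54.2 to 71.1). The macrophage interval lay above the endothelial one at both ages. Monocyte-like cells followed at 11.7 CPM at 9 weeks (7.41 to 17.5) and 9.14 CPM at 6 weeks (4.18 to 17.4). All other named classes of over 50 cells were at or below 1.91 CPM at 9 weeks, where their intervals overlapped, and at or below 0.319 CPM at 6 weeks, where only the cortex had any Mertk UMI. Among them were dendritic-like cells, with 0.989 CPM at 9 weeks and no UMI in 217 cells at 6 weeks, for which the 95% upper limit is 1.25 CPM. When every cell was thinned to 2000 UMIs, Mertk UMIs were found in 16.0% of macrophage-like cells at 9 weeks and 15.2% at 6 weeks, and in 11.6% of endothelial-like cells at 9 weeks and 11.1% at 6 weeks. In T/NK-like cells, which should lack Mertk, the thinned share was 0.101% at 9 weeks and 0 of 332 cells at 6 weeks (up to 1.10%). Without thinning, 42.2% of macrophage-like cells at 9 weeks (median 7117.5 UMIs) and 36.7% at 6 weeks (median 5892 UMIs) had a Mertk UMI, against 0.188% of T/NK-like cells at 9 weeks (median 3933 UMIs) and 0 of 387 at 6 weeks (median 3533 UMIs).

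Within macrophages, Mertk varied more between clusters than between ages. Among clusters with at least 20 cells of an age, the highest level was in M13, with 257.8 CPM at 9 weeks (195.3 to 334.0) and 268.2 CPM at 6 weeks (142.8 to 458.7). Cells of M13 had medians of 1711 UMIs and 8.70% mitochondrial UMIs at 9 weeks and 1366 UMIs and 14.6% at 6 weeks, and the part of this in their Mertk level was not tested. Cluster M1 was at 126.5 CPM at 9 weeks and 147.3 CPM at 6 weeks. The resident cluster M4 was at 207.1 CPM at 9 weeks (107.0 to 361.8; 10 cells) and 108.2 CPM at 6 weeks (94.4 to 123.6; 372 cells). Cluster M0, the largest at 9 weeks after M1, was at 47.2 CPM at 9 weeks (40.7 to 54.4) and 44.4 CPM at 6 weeks (35.0 to 55.5). The dividing cells of cluster M8 were at 51.1 CPM at 9 weeks and 47.9 CPM at 6 weeks. M0 and M8 were the lowest of the clusters named here at both ages, with overlapping intervals, while M13 lay above M1 at 9 weeks and overlapped it at 6 weeks.

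By macrophage subset, Mertk stood at 123.3 CPM at 9 weeks (104.5 to 144.5) and 89.99 CPM at 6 weeks (70.5 to 113.2) in lipid-associated cells, which express Gpnmb and Lpl, a ratio of 1.35 (range 0.927 to 1.98, made from the bounds of both ages). Resident cells, named by a marker set with Folr2 and Mrc1, had 150.8 CPM at 9 weeks (80.3 to 257.9) from only 13 cells. At 6 weeks they had 106.3 CPM (92.9 to 121.1) from 385 cells, and these intervals overlap. Of the 6-week cells, 372 were in M4 and 13 in M17, and Folr2 was a leading gene of M17 but not of M4. Folr2 stood at 719.2 CPM in 9-week and 145.3 CPM in 6-week resident cells, against at most 9.86 CPM in the other subsets. Trem2, a lipid-associated marker, was at 348 CPM in 9-week and 808.7 CPM in 6-week resident cells. In all other macrophages Mertk was at 84.7 CPM at 9 weeks (80.2 to 89.4) and 68.7 CPM at 6 weeks (59.7 to 78.6), a ratio of 1.22 (range 1.02 to 1.46). That last difference was 0.28 on the log2 scale and turned to -0.15 when every cluster counted equally.

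Axl was the more myeloid of the TAM receptors. Macrophage-like cells had 258.7 CPM at 9 weeks (251.1 to 266.5) and 290.3 CPM at 6 weeks (276.9 to 304.3), with Axl UMIs in 40.1% of thinned cells at 9 weeks and 42.6% at 6 weeks. Monocyte-like cells came next with 50.3 CPM at 9 weeks (40.9 to 61.2) and 74.1 CPM at 6 weeks (58.1 to 93.2). Dendritic-like cells had 40.2 CPM at 9 weeks (37.2 to 43.4) and 49.5 CPM at 6 weeks (41.8 to 58.2). Intervals of monocyte-like and dendritic-like cells overlapped at both ages, and every other named class of over 50 cells was below 10 CPM. Unlike Mertk, Axl was near the floor in endothelium, at 2.62 CPM at 9 weeks and 2.58 CPM at 6 weeks, and in the cortex, at 0.674 CPM at 9 weeks and 0.182 CPM at 6 weeks. T/NK-like cells had 4.13 CPM at 9 weeks and 6.89 CPM at 6 weeks, with an Axl UMI in 0.809% of thinned cells at 9 weeks and 1.20% at 6 weeks.

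Among dendritic cells, Axl was carried by both subsets that could be separated. Type 1 cells, which express Xcr1 and Clec9a, had 36.8 CPM at 9 weeks (33.8 to 39.9) and 47.5 CPM at 6 weeks (39.4 to 56.8). Mature cells, which express Ccr7, had 97.4 CPM at 9 weeks (78.3 to 119.9) and 61.4 CPM at 6 weeks (40.1 to 89.96). These were above the type 1 interval at 9 weeks and overlapped it at 6 weeks. The type 1 markers are not exclusive to type 1 cells. Xcr1 was at 543 CPM at 9 weeks and 493.5 CPM at 6 weeks in mature cells, against 813.9 CPM and 661.1 CPM in type 1 cells. Clec9a was at 229.9 CPM and 229.1 CPM in mature cells, against 295 CPM and 258.1 CPM. Ccr7, by contrast, was below 1 CPM in type 1 cells at both ages. The unnamed cluster M11, led by Cd209a, Mgl2 and Clec10a and holding markers of both macrophages and dendritic cells, had 103.6 CPM at 9 weeks (82.7 to 128.3) and 107.9 CPM at 6 weeks (81.0 to 140.7), while its Mertk level was 1.23 CPM at 9 weeks and 2.00 CPM at 6 weeks. Mertk in type 1 cells was at 0.721 CPM at 9 weeks with no UMI at 6 weeks, and in mature cells at 5.47 CPM at 9 weeks (5 UMIs) with no UMI at 6 weeks, so all 3 groups had Axl UMIs with few or no Mertk UMIs.

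Lipid-associated macrophages had less Axl than the other macrophages at 6 weeks and overlapped them at 9 weeks. It stood at 232.0 CPM at 9 weeks and 214.5 CPM at 6 weeks in lipid-associated cells, and at 261.6 CPM at 9 weeks and 293.2 CPM at 6 weeks in the other macrophages, ratios of 1.08 and 0.894. Resident cells had 127.6 CPM at 9 weeks (63.7 to 228.3; 11 UMIs) and 315.0 CPM at 6 weeks (291.6 to 339.8; 670 UMIs). The 9-week value of resident cells comes from clusters M4 and M17, which held 10 and 3 cells, against 372 and 13 cells at 6 weeks. M4 alone had 155.3 CPM at 9 weeks and 325.2 CPM at 6 weeks.

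Itgb5, the integrin subunit, was the receptor shared by macrophages and the cortex. It stood at 339.6 CPM at 9 weeks (330.9 to 348.5) and 383.0 CPM at 6 weeks (367.5 to 399.0) in macrophage-like cells, at 125.8 CPM at 9 weeks (121.8 to 129.9) and 166.9 CPM at 6 weeks (163.8 to 170.1) in adrenocortical-like cells, and at 93.2 CPM at 9 weeks (84.2 to 102.9) and 114.7 CPM at 6 weeks (103.7 to 126.5) in endothelial-like cells. These 3 intervals were apart at each age. Monocyte-like cells had 60.5 CPM at 9 weeks (50.1 to 72.4) and 95.5 CPM at 6 weeks (77.1 to 116.8), overlapping endothelium at 6 weeks. Dendritic-like cells had 9.09 CPM at 9 weeks and 13.9 CPM at 6 weeks, and T/NK-like cells 1.86 CPM at 9 weeks and 3.13 CPM at 6 weeks. Thinned shares of cells with an Itgb5 UMI were 48.7% at 9 weeks and 54.0% at 6 weeks in macrophage-like cells and 20.35% at 9 weeks and 27.95% at 6 weeks in adrenocortical-like cells, against 0.202% at 9 weeks and 0.602% at 6 weeks in T/NK-like cells.

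Lipid-associated macrophages had less Itgb5 than the other macrophages at both ages, while for Mertk they lay above them at 9 weeks and overlapped them at 6 weeks. They had 199.6 CPM at 9 weeks (175.4 to 226.1) and 231.8 CPM at 6 weeks (199.8 to 267.4), against 350.2 CPM at 9 weeks (340.9 to 359.6) and 336.5 CPM at 6 weeks (316.3 to 357.7) in the other macrophages. Resident cells, above both at 6 weeks and overlapping the other macrophages at 9 weeks, had 429.2 CPM at 9 weeks (302.2 to 591.6) and 507.8 CPM at 6 weeks (477.9 to 539.0), a level that came from M4, since M17, led by Folr2 and Lyve1 among others, had no Itgb5 UMI in 3 cells at 9 weeks and 19.3 CPM at 6 weeks. In the cortex, Itgb5 was at 93.02 CPM at 9 weeks and 88.9 CPM at 6 weeks in the outer cells, which express Wnt4 and Hsd3b6, and at 170.6 CPM at 9 weeks and 187.9 CPM at 6 weeks in the other cortical cells, with 105.0 CPM at 9 weeks and 109.5 CPM at 6 weeks in the small Cyp2f2-high cluster A11. That name is not exclusive, since the other cortical cells also had Cyp2f2. It stood at 3201.6 CPM at 9 weeks and 2306.9 CPM at 6 weeks in A11, against 302.6 CPM and 1218.8 CPM in the other cells. Akr1c18 set A11 apart more sharply, at 596.6 CPM and 3571.3 CPM against 0.161 CPM and 0.794 CPM. The alpha subunit Itgav, with which Itgb5 pairs, was measured in the same classes, at 75.6 CPM at 9 weeks and 82.5 CPM at 6 weeks in macrophage-like cells and at 45.2 CPM at 9 weeks and 34.4 CPM at 6 weeks in adrenocortical-like cells.

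**Figure D1:**
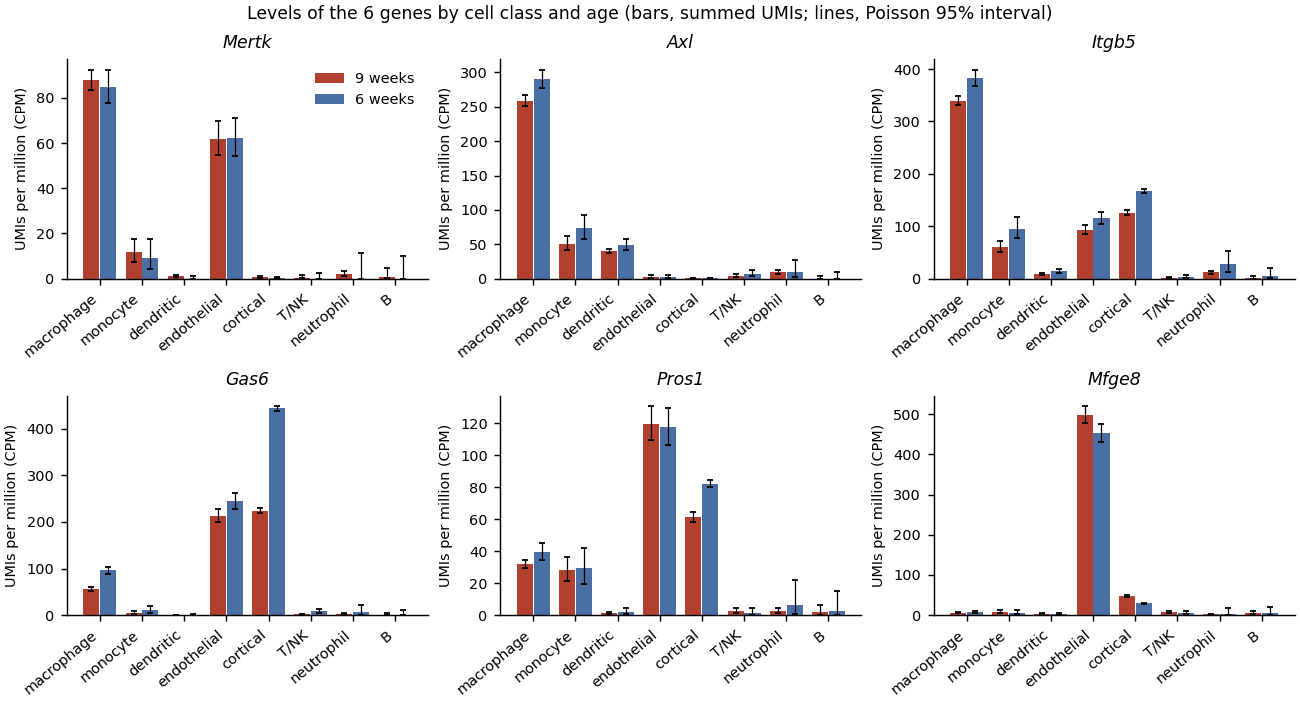
Level of each gene in CPM of the class (vertical axis, own scale per gene), by cell class, at 9 weeks (left bar) and 6 weeks (right bar); lines are exact Poisson 95% intervals. Mertk stands in macrophages and endothelium, Axl in myeloid cells, Mfge8 in endothelium (498.5 CPM at 9 weeks and 452.2 CPM at 6 weeks), and Gas6 in the cortex is lower at 9 weeks (223.9 CPM at 9 weeks and 443.6 CPM at 6 weeks).

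Gas6, a ligand of Axl and Mertk, was abundant in the cortex and in endothelium. Adrenocortical-like cells had 223.9 CPM at 9 weeks (218.5 to 229.3) and 443.6 CPM at 6 weeks (438.5 to 448.7). Endothelial-like cells had 212.8 CPM at 9 weeks (199.1 to 227.3) and 244.6 CPM at 6 weeks (228.4 to 261.6). The 2 classes overlapped at 9 weeks, and the cortex was above endothelium at 6 weeks. Macrophage-like cells had 55.7 CPM at 9 weeks (52.2 to 59.4) and 95.8 CPM at 6 weeks (88.2 to 104.0). Levels in monocyte-like cells were 4.07 CPM at 9 weeks and 11.2 CPM at 6 weeks. Their intervals overlapped those of T/NK-like cells, at 1.45 CPM at 9 weeks and 8.15 CPM at 6 weeks. Whether these levels are background was not tested. Dendritic-like cells had 0.742 CPM at 9 weeks and 0.678 CPM at 6 weeks. The thinned share of cells with a Gas6 UMI was 27.0% at 9 weeks and 47.6% at 6 weeks in adrenocortical-like cells and 27.6% at 9 weeks and 33.8% at 6 weeks in endothelial-like cells, against 0.202% at 9 weeks and 1.81% at 6 weeks in T/NK-like cells.

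Within the cortex, Gas6 separated the outer cells from the rest. Outer cells had 91.3 CPM at 9 weeks (86.8 to 96.0) and 59.9 CPM at 6 weeks (55.8 to 64.2), the other cortical cells 395.8 CPM at 9 weeks (384.9 to 407.1) and 542.9 CPM at 6 weeks (536.6 to 549.3), and the Cyp2f2-high cluster A11 390.7 CPM at 9 weeks (336.6 to 451.1) and 345.2 CPM at 6 weeks (310.1 to 383.2). The clusters spread further. At 6 weeks A1 was highest with 698.3 CPM (685.5 to 711.3), A6 and A2 had 562.5 CPM and 558.6 CPM with overlapping intervals, and A5 and A3 had 349.4 CPM and 339.8 CPM, again overlapping. At 9 weeks nearly all of these cells were in A5, with 382.5 CPM (371.4 to 393.9), while the 21 cells of A6 had 615.9 CPM (538.8 to 700.8) and the 18 cells of A2 had 799.8 CPM (674.1 to 942.2). Low levels marked the outer clusters A4, with 35.3 CPM at 9 weeks and 32.4 CPM at 6 weeks, and A7, with 44.6 CPM at 9 weeks and 35.1 CPM at 6 weeks.

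Gas6 was uneven within endothelium and macrophages as well. Cluster E2 had 466.2 CPM at 9 weeks (417.5 to 519.1) and 563.0 CPM at 6 weeks (505.8 to 624.9). Cluster E6 had 458.1 CPM at 9 weeks and 309.4 CPM at 6 weeks, whereas E4 had 99.6 CPM at 9 weeks and 134.4 CPM at 6 weeks. Among macrophages, the 16 cells of M17 held the highest levels, with 955.2 CPM at 9 weeks (629.5 to 1389.8; 3 cells) and 627.0 CPM at 6 weeks (483.9 to 799.1; 13 cells). The other resident cluster, M4, had 86.3 CPM at 9 weeks (28.0 to 201.4) and 151.7 CPM at 6 weeks (135.2 to 169.7). Lipid-associated cells had 81.1 CPM at 9 weeks (66.0 to 98.7) and 98.6 CPM at 6 weeks (78.2 to 122.7), and the remaining macrophages 52.0 CPM at 9 weeks (48.5 to 55.7) and 40.4 CPM at 6 weeks (33.6 to 48.1). The 8 adrenocortical markers summed to 283.3 CPM in 9-week and 330.9 CPM in 6-week macrophage-like cells, and all 8 had UMIs there at both ages. In dendritic-like cells the same markers summed to 129.7 CPM at 9 weeks and 224.8 CPM at 6 weeks, with Gas6 below 1 CPM. Gas6 was at 1.45 CPM at 9 weeks and 8.15 CPM at 6 weeks in T/NK-like cells. Monocyte-like cells had 4.07 CPM at 9 weeks and 11.2 CPM at 6 weeks. The part of cortical RNA in the Gas6 level of macrophages or of these classes was not tested.

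**Figure D2:**
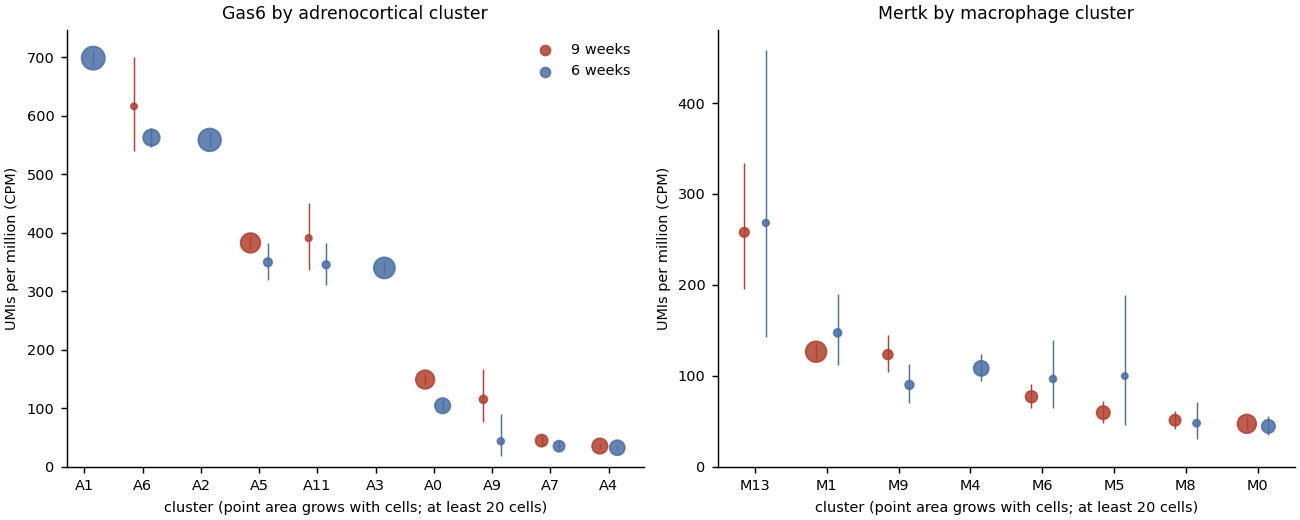
Gas6 in adrenocortical-like clusters (left) and Mertk in macrophage-like clusters (right), in CPM on the vertical axis, for clusters with at least 20 cells at that age; red-brown points are 9 weeks, blue points 6 weeks, point area grows with the number of cells and lines are Poisson 95% intervals. Cluster A5 lies at 382.5 CPM at 9 weeks and 349.4 CPM at 6 weeks for Gas6, while A1, A2 and A3 appear at 6 weeks alone.

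Pros1, which encodes protein S, a ligand of Mertk and a cofactor of anticoagulation, was found in the same classes as Gas6 and also in monocytes. Endothelial-like cells had 119.9 CPM at 9 weeks (109.6 to 130.8) and 117.6 CPM at 6 weeks (106.5 to 129.5), adrenocortical-like cells 61.4 CPM at 9 weeks (58.6 to 64.3) and 82.2 CPM at 6 weeks (80.0 to 84.4), and macrophage-like cells 32.0 CPM at 9 weeks (29.3 to 34.8) and 39.6 CPM at 6 weeks (34.7 to 45.0). These intervals did not overlap at either age. Monocyte-like cells had 28.0 CPM at 9 weeks (21.1 to 36.4) and 29.5 CPM at 6 weeks (19.7 to 42.3), overlapping macrophages. Dendritic-like cells had 1.17 CPM at 9 weeks and 2.03 CPM at 6 weeks, and T/NK-like cells 2.68 CPM at 9 weeks and 1.25 CPM at 6 weeks. In macrophages, M17 was again highest, with 176.9 CPM at 9 weeks (57.4 to 412.8) and 212.2 CPM at 6 weeks (133.0 to 321.3). In the cortex the outer cells had 48.7 CPM at both ages and the other cortical cells 78.5 CPM at 9 weeks and 91.0 CPM at 6 weeks. Thinned shares were 20.4% at 9 weeks and 20.8% at 6 weeks in endothelial-like cells and 10.45% at 9 weeks and 15.54% at 6 weeks in adrenocortical-like cells, against 0.404% at 9 weeks and 0.301% at 6 weeks in T/NK-like cells.

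Mfge8, the integrin ligand, was an endothelial transcript. Endothelial-like cells had 498.5 CPM at 9 weeks (477.3 to 520.3) and 452.2 CPM at 6 weeks (430.1 to 475.1), and 61.5% of thinned cells at 9 weeks and 55.5% at 6 weeks had an Mfge8 UMI. Adrenocortical-like cells had 47.1 CPM at 9 weeks (44.7 to 49.6) and 29.6 CPM at 6 weeks (28.3 to 31.0), with thinned shares of 9.89% at 9 weeks and 5.54% at 6 weeks. In macrophage-like cells Mfge8 stood at 6.27 CPM at 9 weeks and 6.99 CPM at 6 weeks. T/NK-like cells were near that, at 8.26 CPM at 9 weeks and 5.01 CPM at 6 weeks. The thinned share in T/NK-like cells was 1.92% at 9 weeks and 0.301% at 6 weeks. Dendritic-like cells had 3.40 CPM at 9 weeks and 2.37 CPM at 6 weeks. The part of background in these macrophage-like and dendritic-like levels was not tested. Mast and basophil-like cells had 107.6 CPM at 9 weeks (62.7 to 172.2) from 45 cells and 54.1 CPM at 6 weeks (6.55 to 195.3) from 14 cells. Among endothelial clusters with at least 20 cells of an age, E8 was lowest at both ages, with 202.4 CPM at 9 weeks (141.0 to 281.5) and 208.8 CPM at 6 weeks (159.4 to 268.8), and E1 had 639.0 CPM at 9 weeks (551.8 to 736.1) and 584.8 CPM at 6 weeks (517.8 to 658.0). Mfge8 also varied among cortical clusters: the outer cluster A0 had 68.0 CPM at 9 weeks and 65.2 CPM at 6 weeks, and the Cyp2f2-high cluster A11 had 8.40 CPM at 9 weeks and 4.89 CPM at 6 weeks.

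**Figure D3:**
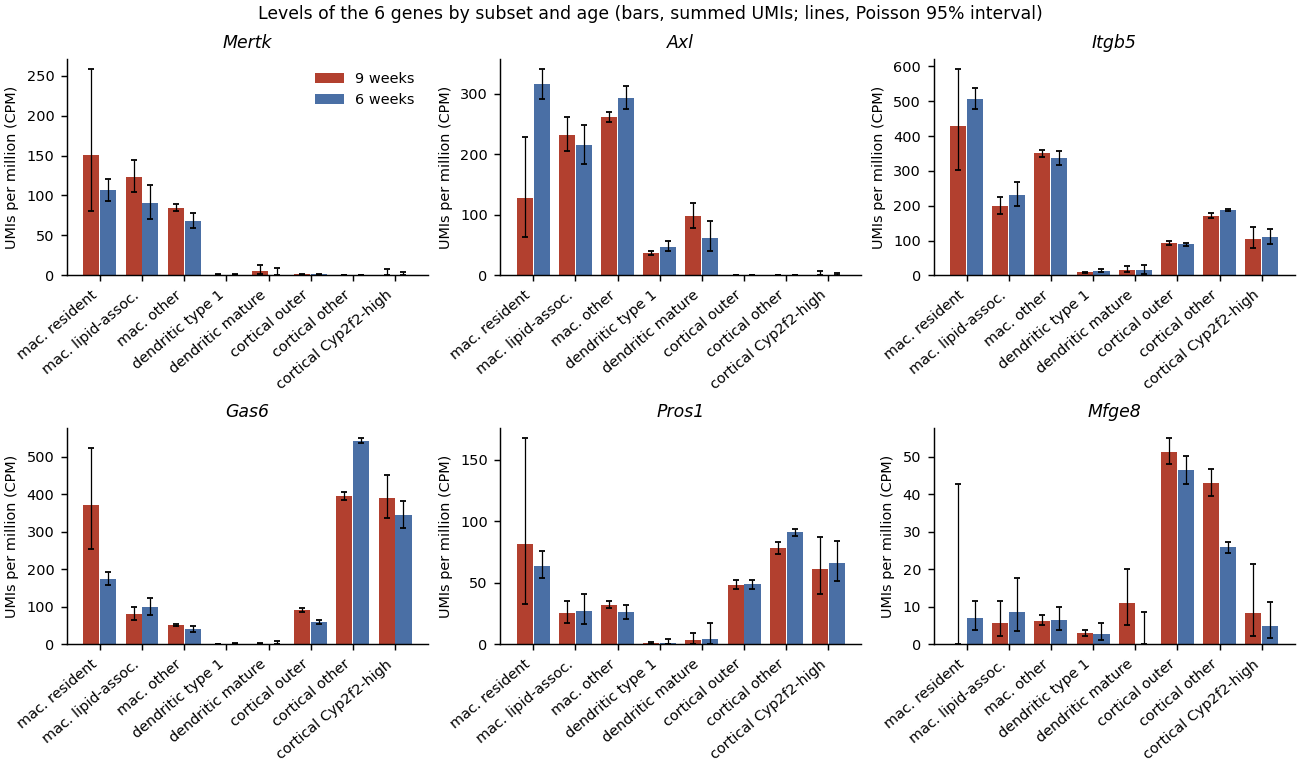
Level of each gene in CPM (vertical axis, own scale per gene) in macrophage (mac.), dendritic and cortical subsets, at 9 weeks (left bar) and 6 weeks (right bar), with Poisson 95% intervals. Lipid-associated macrophages are low for Itgb5 (199.6 CPM at 9 weeks and 231.8 CPM at 6 weeks), resident macrophages at 9 weeks rest on 13 cells, and Gas6 is far higher in other and Cyp2f2-high cortical cells than in outer ones.

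Mertk and Axl could be seen in the same macrophage. At 2000 UMIs per cell, UMIs of both were seen in 6.99% of 2147 macrophage-like cells at 9 weeks (5.94% to 8.15%) and in 8.29% of 881 cells at 6 weeks (6.55% to 10.3%). Axl UMIs were found in 43.7% of 9-week macrophages with a Mertk UMI and 39.4% of those without, and in 54.5% of 6-week macrophages with a Mertk UMI and 40.4% of those without. Axl and Itgb5 were seen together in 19.4% of macrophage-like cells at 9 weeks and 24.7% at 6 weeks. Itgb5 UMIs were found in 48.3% of 9-week macrophages with an Axl UMI and 49.0% of those without. At 6 weeks these shares were 58.1% and 51.0%. In endothelial-like cells, Mertk and Axl were seen together in 0 of 1160 cells at 9 weeks (up to 0.318%) and 1 of 841 cells at 6 weeks. Mertk and Mfge8 were seen together in 7.41% of endothelial-like cells at 9 weeks and 6.78% at 6 weeks. Mfge8 UMIs were found in 63.7% of 9-week endothelial-like cells with a Mertk UMI and 61.2% of those without. At 6 weeks these shares were 61.3% and 54.8%. Gas6, the ligand, was seen in macrophages with and without its receptor: of 9-week macrophages 12.5% of those with a Mertk UMI and 9.20% of those without had a Gas6 UMI, and of 6-week macrophages 20.1% of those with and 18.6% of those without. Cells of 1 library are not replicates, so these shares carry no test.

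The cells that supplied the RNA of each gene differed with the makeup of the library. Macrophage-like cells held 78.4% of all Mertk UMIs at 9 weeks and 64.2% at 6 weeks, and endothelial-like cells 13.7% at 9 weeks and 27.3% at 6 weeks. For Axl, macrophage-like cells held 78.7% at 9 weeks and 80.9% at 6 weeks and dendritic-like cells 11.7% at 9 weeks and 6.77% at 6 weeks. Itgb5 UMIs lay mostly in macrophages at 9 weeks and in the cortex at 6 weeks: macrophage-like cells held 53.6% at 9 weeks and 16.2% at 6 weeks, and adrenocortical-like cells 34.8% at 9 weeks and 77.1% at 6 weeks. Of Gas6, adrenocortical-like cells held 74.1% at 9 weeks and 93.4% at 6 weeks, macrophage-like cells 10.5% at 9 weeks and 1.84% at 6 weeks, and endothelial-like cells 9.98% at 9 weeks and 2.73% at 6 weeks. Pros1 had 57.0% of its UMIs in adrenocortical-like cells at 9 weeks and 85.6% at 6 weeks. For Mfge8 the cortex held 34.8% at 9 weeks and 51.9% at 6 weeks, and endothelium 52.2% at 9 weeks and 42.0% at 6 weeks, although endothelial-like cells gave only 4.75% of all UMIs at 9 weeks and 4.04% at 6 weeks.

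**Figure D4:**
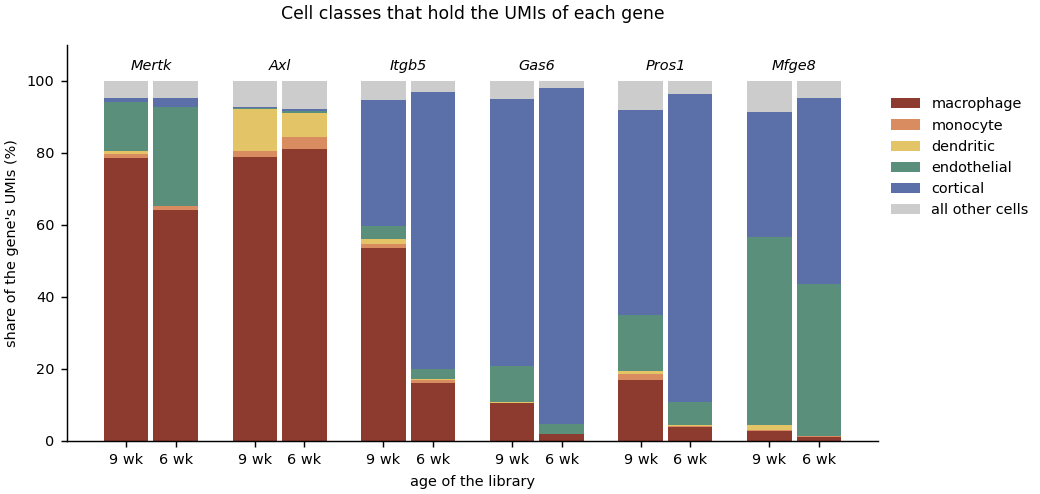
Share of each gene's UMIs (vertical axis, percent) held by each cell class, with the 9-week library (9 wk) left of the 6-week library (6 wk) for every gene. For Itgb5, macrophages hold 53.6% at 9 weeks and 16.2% at 6 weeks, and the cortex 34.8% at 9 weeks and 77.1% at 6 weeks.

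Over all kept cells, Mertk and Axl were higher at 9 weeks and the ligands Gas6 and Pros1 lower. Mertk was at 21.4 CPM at 9 weeks (20.5 to 22.4) and 9.21 CPM at 6 weeks (8.58 to 9.88), a ratio of 1.86, and Axl at 62.8 CPM at 9 weeks (61.1 to 64.5) and 25 CPM at 6 weeks (24.0 to 26.1), a ratio of 2.26. Gas6 was at 101.3 CPM at 9 weeks (99.2 to 103.4) and 362.3 CPM at 6 weeks (358.3 to 366.3), a ratio of 0.289, and Pros1 at 36.1 CPM at 9 weeks and 73.2 CPM at 6 weeks, a ratio of 0.526. Itgb5 had a ratio of 0.741 and Mfge8 of 1.04. All ratios in this text are of CPM after a pseudocount of 5 CPM. Adrenocortical-like cells gave 33.5% of all UMIs at 9 weeks and 76.3% at 6 weeks, and macrophage-like cells 19.1% at 9 weeks and 6.97% at 6 weeks. Weighting the 6-week class levels by the 9-week class mix gave 20.2 CPM for Mertk and 70.4 CPM for Axl, close to the 9-week library, but 192.2 CPM for Gas6, between the 2 libraries. For Pros1 the same weighting gave 46.7 CPM.

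Between the ages, a gene was counted as higher or lower in a class from a 1.5-fold ratio on, among genes with at least 10 CPM in 1 library and 10 UMIs over both. In macrophage-like cells 5 of the 6 genes met that minimum, none was higher and Gas6 alone was lower, where 1.48% of 7815 genes were higher, 2.12% lower and 3.61% either. The Gas6 ratio was 0.602 (range 0.525 to 0.691), Axl and Itgb5 stood at 0.893 and 0.888, Pros1 at 0.829 and Mertk at 1.03. The Gas6 difference of the class was in neither subset with at least 50 cells at both ages. In lipid-associated cells the ratio was 0.831 (0.556 to 1.25) and in the other macrophages 1.26 (1.01 to 1.57). Resident cells had Gas6 at 371.2 CPM at 9 weeks (253.9 to 524.1) from 13 cells and 174.9 CPM at 6 weeks (157.6 to 193.6) from 385 cells. M17, with the highest Gas6 level, made up 3 of those cells at 9 weeks and 13 at 6 weeks. In M4, the other resident cluster, Gas6 was lower at 9 weeks than at 6 weeks, with overlapping intervals. In lipid-associated cells 5 genes were measured and none was past 1.5-fold, where 10.3% of 7638 genes were higher, 5.22% lower and 15.5% either. In the other macrophages 5 were measured and again none, where 1.59% of 7805 genes were higher, 1.36% lower and 2.95% either (124 and 106 genes, or 93 and 126 with trimmed mean scaling). Giving each macrophage cluster the same weight at both ages brought the Gas6 log2 ratio to -0.10, where pooled cells gave -0.73.

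In endothelial-like cells 5 genes were measured and none was past 1.5-fold, where 1.15% of 8881 genes were higher, 1.28% lower and 2.43% either. The ratios were 0.994 for Mertk (range 0.783 to 1.26), 0.821 for Itgb5, 0.873 for Gas6, 1.02 for Pros1 and 1.10 for Mfge8 (1.005 to 1.21), with a median log2 ratio of -0.01 beside 0.00 over all genes. In dendritic-like cells Axl and Itgb5 were measured, with ratios of 0.829 (0.667 to 1.03) and 0.745 (0.531 to 1.05), and neither was past 1.5-fold, where 1.35% of 7186 genes were higher, 1.52% lower and 2.87% either (97 and 109 genes, or 71 and 127 with trimmed mean scaling). In monocyte-like cells 5 were measured and 2 were lower, where 5.95% of 7641 genes were higher, 5.14% lower and 11.1% either. Those were Itgb5, with a ratio of 0.652 (0.452 to 0.942), and Gas6, with 0.561 (0.270 to 1.23). The Gas6 ratio rests on 8 UMIs at 9 weeks and 11 UMIs at 6 weeks.

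In adrenocortical-like cells 4 genes were measured, Gas6 was lower and Mfge8 higher by 1.5-fold, where 7.77% of 8561 genes were higher, 4.02% lower and 11.8% either. The ratios were 0.510 for Gas6 (range 0.493 to 0.528), 0.761 for Pros1 (0.711 to 0.814), 0.761 for Itgb5 (0.724 to 0.799) and 1.505 for Mfge8 (1.38 to 1.64), the last at the edge of the 1.5-fold line and under it in several alternative settings. Trimmed mean scaling shifted cortical levels at 9 weeks by -0.16 on the log2 scale, which turned the 665 higher and 344 lower genes into 482 higher and 539 lower. In the other cortical cells, where 1.95% of 8095 genes were higher, 1.20% lower and 3.15% either (158 and 97 genes, or 117 and 138 with trimmed mean scaling), Mfge8 was higher with a ratio of 1.56 (1.38 to 1.76), and Gas6 had 0.732 (0.703 to 0.761), Pros1 0.869 and Itgb5 0.910. In outer cells, where 0.936% of 8443 genes were higher, 0.367% lower and 1.30% either (79 and 31 genes, or 65 and 49 with trimmed mean scaling), none of the 4 was past 1.5-fold, Gas6 had 1.48 (1.33 to 1.66), Mfge8 1.09, Itgb5 1.04 and Pros1 0.999. On the log2 scale the Gas6 value of outer cells was 0.57, but -0.29 with called doublets kept and -0.06 with at most 10% mitochondrial UMIs.

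The class values of the cortex hide clusters that point another way. In A5, the only large inner cluster with many cells of both ages, Gas6 was at 382.5 CPM at 9 weeks (371.4 to 393.9) and 349.4 CPM at 6 weeks (318.7 to 382.3), and Mfge8 at 43.6 CPM at 9 weeks (39.9 to 47.5) and 49.3 CPM at 6 weeks (38.2 to 62.6). For both genes these intervals overlap. In the outer cluster A0, Gas6 was at 149.0 CPM at 9 weeks (140.6 to 157.8) and 104.2 CPM at 6 weeks (95.3 to 113.6). With clusters weighted alike, the log2 ratio in the cortex was 0.21 for Gas6 in place of -0.97 and -0.04 for Mfge8 in place of 0.59. For both genes the pooled cortical difference moved under this weighting. The part of clusters that only 1 library filled was not tested.

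**Figure D5:**
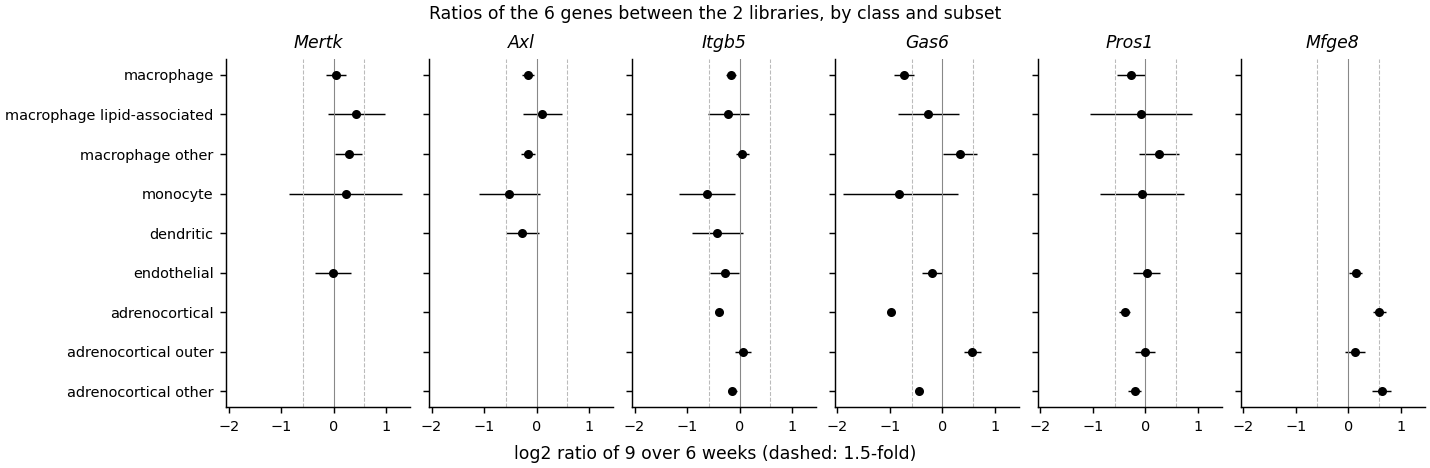
Log2 ratio of 9 over 6 weeks (horizontal axis, after a pseudocount of 5 CPM) for each gene in classes and subsets (rows) where it was measured; lines run over the range made from the Poisson bounds of both ages and dashed lines mark 1.5-fold. Most points lie between the dashed lines. Gas6 lies below them in the cortex as a whole (-0.97), in macrophages (-0.73) and in monocytes (-0.835), and Itgb5 in monocytes (-0.62). Mfge8 lies above them in the cortex as a whole (0.59) and in other cortical cells (0.64).

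The rest of the pathway was described with 61 genes in 7 lists chosen with earlier results of these data known. In macrophage-like cells 39 were measured, none was higher and 2 were lower, beside 1.48% higher and 2.12% lower over all genes. Their median log2 ratio was -0.07 beside 0.04 over all genes. By list, 1 of 9 measured receptors and 1 of 7 regulators was lower, and none of 4 bridging genes, 12 engulfment genes, 2 carboxylation genes, 3 shedding genes and 2 restraining signals was past 1.5-fold. The lower ones were the scavenger receptor Cd36, at 154.8 CPM at 9 weeks and 272.8 CPM at 6 weeks, and Nr1h3, a liver X receptor that is activated after engulfment, at 15.9 CPM at 9 weeks and 29.1 CPM at 6 weeks. Of 39 measured in the other macrophages, C4b was higher and Lgals3, Vkorc1l1 and Nr1h3 lower, beside 1.59% higher and 1.36% lower over all genes. C4b had a ratio of 2.31 there and 2.37 in lipid-associated cells, but 1.24 in macrophage-like cells as a whole. In lipid-associated cells 38 were measured, 4 higher and 2 lower, beside 10.3% higher and 5.22% lower over all genes. Cd36 was within 1.5-fold in both subsets, at 0.688 in the other macrophages and 0.997 in lipid-associated cells. The third TAM receptor, Tyro3, was nearly undetected, with 1 UMI in 9-week and 0 UMIs in 6-week macrophage-like cells and 1.18 CPM at 9 weeks and 1.11 CPM at 6 weeks in the cortex. Adam17, the protease that sheds Mertk from the cell surface, stood at 108.1 CPM at 9 weeks and 105.6 CPM at 6 weeks in macrophages. Stab1, another receptor for phosphatidylserine, was shared by the same cells as Mertk, with 438.9 CPM at 9 weeks and 613.2 CPM at 6 weeks in macrophage-like cells and 319.4 CPM at 9 weeks and 305.7 CPM at 6 weeks in endothelial-like cells.

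In endothelial-like cells 41 of the 61 were measured, none was higher and 2 were lower, C4b and the cholesterol exporter Abca1, beside 1.15% higher and 1.28% lower over all genes, with a median log2 ratio of 0.02. Edil3, a relative of Mfge8 that also binds phosphatidylserine and integrins, was at 193.1 CPM at 9 weeks and 193.8 CPM at 6 weeks there. In dendritic-like cells 25 were measured and 1, Socs1, was lower, beside 1.52% lower over all genes, with a median of 0.02, and Cd36 stood at 238.7 CPM at 9 weeks and 212.6 CPM at 6 weeks. Of 41 measured in monocyte-like cells, 7 were lower and none higher, beside 5.14% lower and 5.95% higher over all genes. Their median was -0.12 beside 0.02 over all genes. In the cortex 37 were measured, with 7 higher and 5 lower (6 and 7 with trimmed mean scaling), beside 7.77% higher and 4.02% lower over all genes. The median there was 0.07, as over all genes. Among the higher ones were Scarb1, Tub, Elmo1, Ucp2, Timp3 and Cd24a, and the lower ones were Lrp1, Cd36, C4b, Maf and Sirpa. Timp3, an inhibitor of shedding proteases, was at 548.0 CPM at 9 weeks and 263.9 CPM at 6 weeks, and C4b, a complement component, at 377.4 CPM at 9 weeks and 806.3 CPM at 6 weeks. Both were within 1.5-fold in the larger cortical subsets. In outer cells the ratios were 1.055 for Timp3 and 0.989 for C4b, and in the other cortical cells 1.062 and 0.823. The enzymes of vitamin K dependent carboxylation, which Gas6 and Pros1 need, were within 1.5-fold in the cortex: Ggcx was at 14.6 CPM at 9 weeks and 12.0 CPM at 6 weeks, and Vkorc1 at 112.7 CPM at 9 weeks and 107.0 CPM at 6 weeks.

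Across 23 groups of at least 50 cells, made of 13 cell types at up to 2 ages each, the 6 genes resembled different companions. The measure was Pearson's r of log2 levels over these groups, among 5846 candidate genes, given as a description, since groups of 1 library share its depth and preparation. Mertk was most like Mrc1 (0.97), Pf4 (0.97) and Stab1 (0.96), which among these groups were all highest in 6-week resident macrophages. The 9-week resident macrophages were too few to be a group. They had Mrc1 at 1531.3 CPM and Pf4 at 1600.9 CPM, above the 982.2 CPM and 1348.0 CPM of 6 weeks. Mrc1 and Pf4 are also among the markers that named that subset. Axl was most like Adap2 (0.98), P2ry6 (0.97) and E230029C05Rik (0.96). Itgb5 came nearest to Gna12 (0.94), Camk1 (0.94) and Slc45a4 (0.93). Among the ligands, Gas6 was most like Pmp22 (0.95), Itga9 (0.95) and Serpinb6a (0.94), Pros1 like Serinc1 (0.96), Laptm4a (0.94) and Dock1 (0.93), and Mfge8 like Fstl1 (0.97), Jam3 (0.97) and Hspg2 (0.97). Between the 6 genes the closest pair was Gas6 and Pros1 (0.92), followed by Pros1 and Itgb5 (0.83), and the farthest was Axl and Mfge8 (-0.39).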

How the data were processed

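The deposited matrices hold UMI counts per gene and cell, which the authors made with Cell Ranger 6.0.1 on mm10, per the submitters' processing notes, which also name Seurat. Their annotation release is not given in the sources read. From these counts, cells with under 500 genes or over 25% mitochondrial UMIs were left out, as were the 595 doublets at 9 weeks and 489 at 6 weeks that a simulation-based caller marked. Cells were clustered in 2 rounds with scanpy 1.11.5 (2000 variable genes, 30 components, 20 neighbours, Leiden resolution 1), giving 62 clusters, of which 12 stayed unnamed. The 6 genes entered neither the variable genes nor the markers. Differences from the study's own cell types may come from these rebuilt names.

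Counts were summed per class and age and given as CPM with exact Poisson 95% intervals, shares of cells with exact Clopper-Pearson intervals, and shares were computed after thinning each cell to 2000 UMIs. Ratios are 9 over 6 weeks after adding 5 CPM. Levels of different genes are not compared, since 3' counts depend on the gene. The Znrf3 counts, at 53.6 CPM at 9 weeks and 44.5 CPM at 6 weeks in adrenocortical-like cells, do not check the deletion, since reads of the transcript end need not cover the floxed exons. With 1 library per age there is no test. The members and lists were chosen with earlier results of these data known. Named genes are the 6 members, the pathway lists and, for likeness, the 3 genes with the highest r among those with at least 50 CPM in 1 group and a log2 range of at least 2. The code was tested on simulated data. Alternatives tried were the pseudocount, trimmed mean scaling, weights of cells and clusters, doublet, gene and mitochondrial filters, and the clustering.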

Additional observations from a re-analysis of the deposited data

Results flagged for a closer look

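The Gas6 ratios of outer and other cells of the adrenocortical-like class lay on opposite sides of equal, neither of them past 1.5-fold. The log2 ratio of 9 over 6 weeks was 0.57 in outer cells, with 91.3 CPM at 9 weeks and 59.9 CPM at 6 weeks, and -0.45 in the other cortical cells, with 395.8 CPM at 9 weeks and 542.9 CPM at 6 weeks. The outer value was -0.29 with called doublets kept and -0.06 with at most 10% mitochondrial UMIs. In the outer cluster A0, which held most outer Gas6 UMIs, the ratio was 1.41 (1.23 to 1.62), a range above equal levels. In the outer clusters A4 and A7 the ratios were 1.08 (0.840 to 1.38) and 1.24 (0.868 to 1.77), with ranges that include equal levels. The difference between the outer and other ratios was not tested, since each age is 1 library. In cluster A5, which holds most of the other cortical cells at 9 weeks, Gas6 was at 382.5 CPM at 9 weeks and 349.4 CPM at 6 weeks.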

How the results depend on the processing

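Over 433 recomputed values of 39 log2 ratios, 396 stayed within the spread of counting error, 33 moved further and 4 that had been past 1.5-fold changed sign. Trimmed mean scaling gave cortical ratios of -1.13 for Gas6, -0.54 for Pros1, 0.45 for Mfge8 and -0.55 for Itgb5. Cortical Gas6 was -1.05 with each cell weighed alike and -1.02 with at most 10% mitochondrial UMIs, and cortical Mfge8 was 0.44 with a pseudocount of 20 CPM. With clusters weighted alike, the cortical ratios were 0.21 for Gas6, -0.049 for Pros1, -0.044 for Mfge8 and -0.10 for Itgb5, Mfge8 in other cortical cells was -0.18, and macrophage ratios were -0.35 for Axl and -0.10 for Gas6. With only clusters that had under 90% of their cells from 1 library, an alternative chosen after seeing the data, they were 1.01 for Gas6, 0.18 for Pros1, 0.10 for Mfge8 and 0.33 for Itgb5 in the cortex and -0.067 for Gas6, 0.085 for Pros1 and -0.019 for Itgb5 in macrophages. These last 2 settings keep fewer or differently weighted cells by construction, and for the others the cause was not tested. At a minimum of 30 CPM, pathway counts were 4 higher and 3 lower in the cortex and 1 lower in macrophages and in endothelium. Weighting clusters alike was not run for monocyte-like and lipid-associated cells, which are 1 cluster each. No paired analysis was possible because each age has 1 library. The 9-week resident macrophages are 13 cells, so their levels have wide intervals.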
